A study of Homo sapiens with 6 samples.

Results

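The 10 DNA replication genes described here load the sliding clamp on DNA, form it, take it off again, or finish the fragments of the lagging strand that it helps to make. They are RFC1, RFC2, RFC3, RFC4, RFC5, PCNA, FEN1, LIG1, CHTF18 and ATAD5, that is 10 of 61204 entries in the expression tables and 10 of the 13945 genes that averaged at least 1 FPKM (fragments for each kilobase of a gene's length, relative to the total of the sample) and were tested. They were picked by gene name, and they were selected on this same contrast, in which RFC1 was known to be among the strongest falls. Their differences between groups are therefore given as a description, with no test.

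RNA sequencing was done on RKO cells, an established human colorectal cancer cell line. Cells in 3 samples received a small interfering RNA (siRNA) against ANP32B, a nuclear histone chaperone (siANP32B), and cells in 3 samples received a control siRNA (siCtrl). All 6 samples carry unedited ANP32B genes, and the knockdown was made with siRNA. The study used the experiment to find genes that depend on ANP32B in colorectal cancer cells. It describes 2 siRNA duplexes against ANP32B without saying which of them the sequenced cells received. The labels do not say whether replicates were separate cultures. Each p-value therefore reflects only how these 6 samples scattered, and that scatter may be technical.

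ANP32B itself had 72.5, 53.9 and 75.3 FPKM in siANP32B cells, against 429, 466 and 452 FPKM in siCtrl cells. This left 15.0% of the siCtrl mean, a log2 fold change of -2.74 (standard error, SE, 0.11, limma adjusted p = 9.37e-07). Samples held 14577044 to 16393123 fragments in siANP32B cells and 14304093 to 18987041 in siCtrl cells, as recovered from the steps of low FPKM values. siCtrl replicate 1 stood apart. Over 1669 genes its counts differed from those of siCtrl replicates 2 and 3 more than counting error allows, with a chi-square of 22.4 and 23.2 for each degree of freedom, while the other replicate comparisons lay at 2.51 to 3.78. The keratins KRT8 and KRT18 averaged 14.3 and 44.3 FPKM in siANP32B cells and 12.2 and 40.6 FPKM in siCtrl cells, and the intestinal factor CDX2 averaged 10.6 FPKM in siANP32B cells and 11.2 FPKM in siCtrl cells. The epithelial genes KRT19, CDH1 and VIL1 were at or near 0 in all samples, so the label of a colorectal epithelial line rests on the others, among them EPCAM at 14.3 FPKM in siANP32B cells and 17.2 FPKM in siCtrl cells. Of the markers of other cell types, PTPRC and CD3E (lymphocytes) and DCN (fibroblasts) were at 0, PECAM1 and VWF (endothelium) averaged under 1 FPKM, and COL1A1 (fibroblasts) averaged 1.72 FPKM in siANP32B cells and 3.66 FPKM in siCtrl cells (limma adjusted p = 0.0121). A part of these cell types in the results was not tested.

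PCNA forms a ring that encircles DNA and tethers the replicative polymerases to their template. The ring cannot close around DNA by itself. A clamp loader made of the large subunit RFC1 and the small subunits RFC2, RFC3, RFC4 and RFC5 opens it and places it at the junction of primer and template. The same small subunits serve other loaders, in which CHTF18 or ATAD5 takes the place of RFC1. On the lagging strand each Okazaki fragment needs a new ring. DNA polymerase delta then displaces the primer of the fragment ahead, FEN1 cuts off the flap, LIG1 seals the nick, and the ATAD5 complex unloads the ring. These genes are expressed mostly in dividing cells, and many of their promoters are bound by E2F transcription factors.

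All of the 10 genes were lower in siANP32B cells than in siCtrl cells. Their means lay between 46.1% (RFC1) and 72.3% (FEN1) of the siCtrl mean, and for each gene the highest siANP32B sample was below the lowest siCtrl sample. The median log2 fold change of the 10 was -0.61, with a range of -1.11 to -0.46, against a median of -0.06 over all tested genes. In the fit over all genes the 10 were called lower at an adjusted p under 0.05, where 24.6% of all tested genes were called lower and 14.6% higher. Groups that did not overlap in this direction were found for 31.8% of all tested genes. As the genes were chosen by this contrast, nothing is read from their counts.

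**Figure D1:**
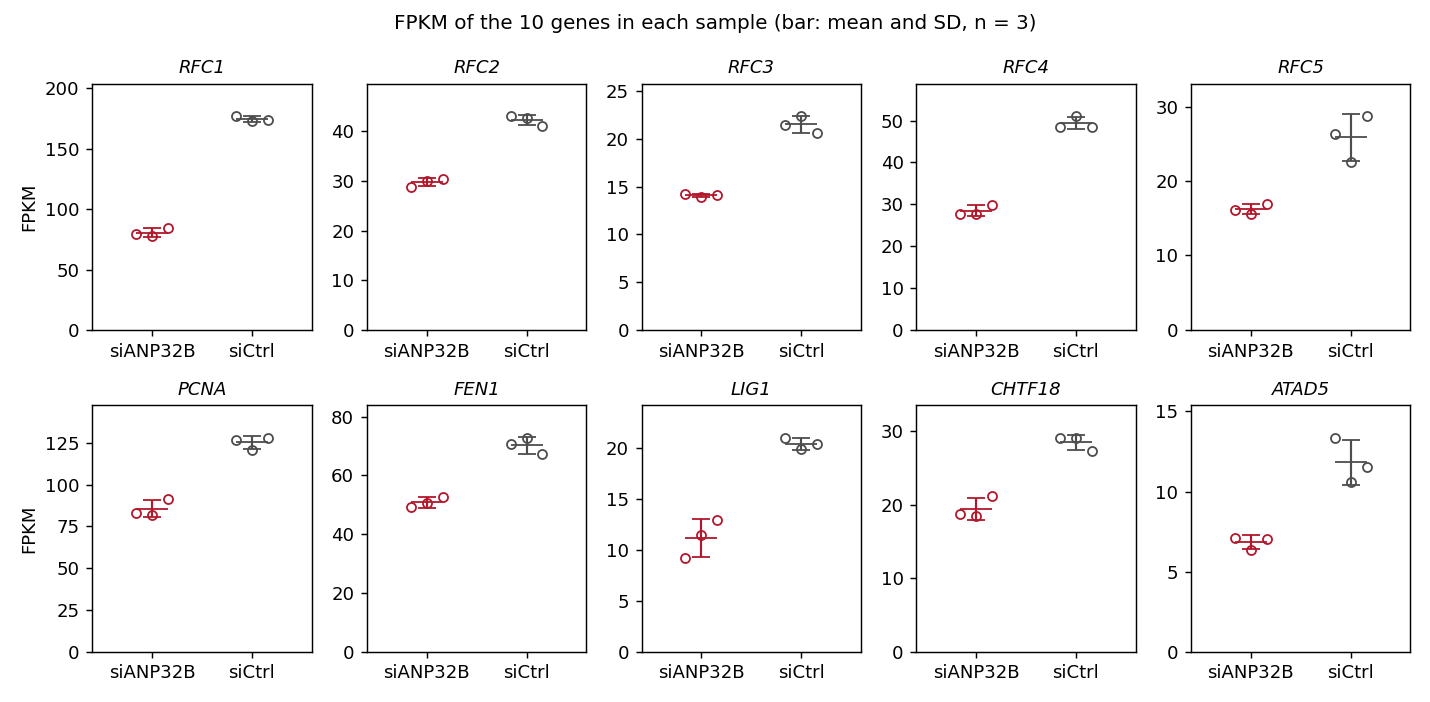
FPKM (y axis, from 0, a separate scale for each gene) of the 10 genes in the 3 siANP32B samples (red, left) and the 3 siCtrl samples (grey, right) of RKO cells. Circles are samples, and bars are the mean and SD (n = 3). In each panel the groups do not overlap, and RFC1 shows the widest gap, with means of 80.5 and 175 FPKM.

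RFC1, the large subunit that holds the loader to the clamp and to DNA, had the greatest difference of the 10. It had 79.3, 77.7 and 84.5 FPKM in siANP32B cells, against 177, 173 and 174 FPKM in siCtrl cells. The replicates of each group lay close together, and the gap between the groups was many times their spread. The means were 80.5 ± 3.55 FPKM in siANP32B cells and 175 ± 2.24 FPKM in siCtrl cells (SD, n = 3 each), 46.1% of the siCtrl mean, with a log2 fold change of -1.11 (SE 0.04). Among all genes that were lower, it held rank 97 by the size of the log2 fold change. This rank is a description, as RFC1 was chosen with its fall known. RFC1 lies at chr4:39287456-39366375 on the minus strand (GRCh38, GENCODE 29) and its longest coding transcript has 25 exons.

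The small subunits, which are ATPases of the same protein family, differed less than RFC1. RFC4 (chr3:186789880-186807058, minus strand) had 27.8, 27.7 and 29.9 FPKM in siANP32B cells, against 48.5, 51.2 and 48.6 FPKM in siCtrl cells. It was the lowest of the 4 relative to siCtrl, at 57.6% of the mean and a log2 fold change of -0.78 (SE 0.05). RFC5 (chr12:118013588-118033130, plus strand) had 16.1, 15.6 and 16.9 FPKM in siANP32B cells, against 26.4, 22.5 and 28.8 FPKM in siCtrl cells. Its siCtrl samples were the most scattered among the 10 genes, with a coefficient of variation of 12.2%, and replicate 2 was the low one. The log2 fold change of RFC5 was -0.64 (SE 0.09), or 62.6% of the siCtrl mean.

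RFC3 (chr13:33818049-33966558, plus strand) had 14.2, 13.9 and 14.1 FPKM in siANP32B cells, against 21.5, 22.4 and 20.6 FPKM in siCtrl cells. Here the siANP32B samples were almost the same, with an SD of 0.177 FPKM. The mean was 65.4% of that in siCtrl cells, a log2 fold change of -0.58 (SE 0.06). RFC2 (chr7:74231499-74254458, minus strand) had 28.9, 30.0 and 30.4 FPKM in siANP32B cells, against 43.2, 42.6 and 41.2 FPKM in siCtrl cells. It kept 70.4% of the siCtrl mean, the greatest share among the 5 subunits of the main loader, with a log2 fold change of -0.49 (SE 0.05).

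The unequal differences changed the balance of the subunit transcripts. RFC1 over the mean of RFC2 to RFC5 was 3.65, 3.57 and 3.69 in siANP32B cells, against 5.08, 4.99 and 4.99 in siCtrl cells (3.64 ± 0.0651 and 5.02 ± 0.0510, SD, n = 3 each). The ratio differed by more than it varied within a group. This is a description, as RFC1 was known to be among the strongest falls when the genes were chosen. A level set against another gene rests on the gene lengths used by the authors, which are not stated. For a ratio between single genes the comparison of the groups does not depend on them. In a mean of several genes the lengths set the weight of each, so the size of this difference does. RFC1 kept a smaller share of its siCtrl mean than each of RFC2 to RFC5, so its direction does not. In bulk RNA, fewer cells that express a gene and less of its RNA per cell cannot be told apart.

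CHTF18 and ATAD5 stand in for RFC1 in the other loaders that use the same small subunits. CHTF18 (chr16:788046-800737, plus strand), whose complex loads PCNA and takes part in sister chromatid cohesion, had 18.7, 18.5 and 21.1 FPKM in siANP32B cells, against 29.2, 29.1 and 27.3 FPKM in siCtrl cells. Its means were 19.5 ± 1.47 and 28.5 ± 1.06 FPKM (siANP32B and siCtrl, SD, n = 3 each), a log2 fold change of -0.53 (SE 0.07). ATAD5 (chr17:30831970-30895869, plus strand), whose complex removes PCNA from DNA, had 7.13, 6.36 and 7.06 FPKM in siANP32B cells, against 13.4, 10.6 and 11.5 FPKM in siCtrl cells. It was the gene with the lowest FPKM of the 10 in both groups. In siCtrl cells replicate 1 was high and replicate 2 low, and the log2 fold change was -0.70 (SE 0.10). Set against siCtrl replicate 1 alone, ATAD5 had a log2 fold change of -0.87, and without that replicate -0.62. RFC1 differed more than either of its counterparts, which is a description, as RFC1 was chosen with its fall known. RFC1 over CHTF18 was 4.14 ± 0.130 in siANP32B cells and 6.13 ± 0.209 in siCtrl cells. RFC1 over ATAD5 was 11.8 ± 0.565 in siANP32B cells and 14.9 ± 1.56 in siCtrl cells (SD, n = 3 each).

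PCNA, the clamp itself (chr20:5114953-5126626, minus strand), had 83.4, 81.9 and 91.5 FPKM in siANP32B cells, against 127, 121 and 128 FPKM in siCtrl cells. Its means were 85.6 ± 5.18 and 125 ± 3.95 FPKM (siANP32B and siCtrl, SD, n = 3 each), or 68.3% of the siCtrl mean, with a log2 fold change of -0.55 (SE 0.05). In size this lay between RFC2 and RFC3, nearer to 0 than for 4 of the 5 subunits of the main loader. PCNA over the mean of RFC1 to RFC5 lay between 2.48 and 2.60 in siANP32B cells and between 1.94 and 2.05 in siCtrl cells. The unstated gene lengths weight this mean as well, so this comparison depends on them. RFC1, chosen with its fall known, had the highest FPKM of the 5 subunits in both groups and so weighs most in the mean. This ratio is therefore a description.

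FEN1 and LIG1 finish the Okazaki fragment. FEN1, the flap endonuclease (chr11:61792637-61797244, plus strand), had 49.1, 50.5 and 52.8 FPKM in siANP32B cells, against 70.9, 72.9 and 67.2 FPKM in siCtrl cells, the smallest difference of the 10 genes (log2 fold change -0.46, SE 0.05). LIG1, the DNA ligase of the lagging strand (chr19:48115445-48170603, minus strand), had 9.22, 11.4 and 12.9 FPKM in siANP32B cells, against 21.0, 19.9 and 20.4 FPKM in siCtrl cells. Its difference was second in size to that of RFC1, at 54.8% of the siCtrl mean and a log2 fold change of -0.82 (SE 0.11). The siANP32B samples of LIG1 were the most scattered of the 10 genes, with a coefficient of variation of 16.6%, and without siANP32B replicate 1 the log2 fold change was -0.70. FEN1 over LIG1 was 5.33, 4.43 and 4.09 in siANP32B cells, against 3.37, 3.67 and 3.30 in siCtrl cells. The values did not overlap, but the siANP32B samples spread widely (SD 0.643, against 0.198 in siCtrl cells). FEN1 over PCNA was 0.594 ± 0.0204 in siANP32B cells and 0.562 ± 0.0400 in siCtrl cells, a difference within the spread of the samples.

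**Figure D2:**
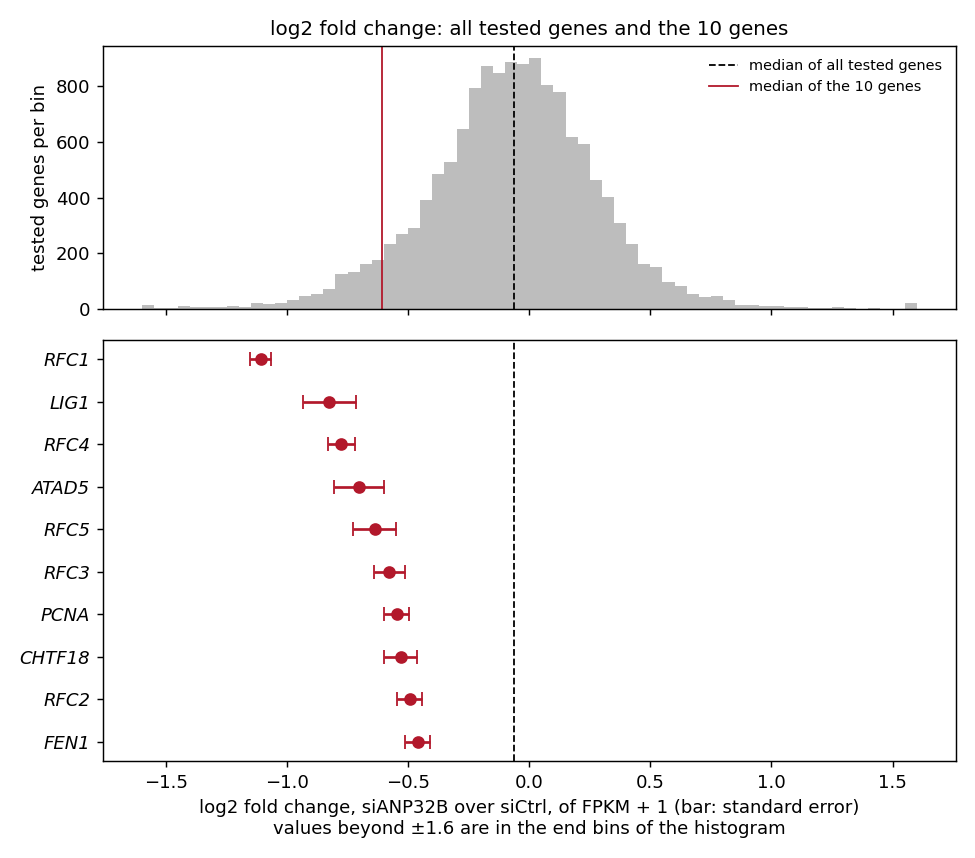
Top, histogram of the log2 fold change (siANP32B over siCtrl, of FPKM + 1) of the 13945 tested genes, with the medians of all genes (dashed, -0.06) and of the 10 genes (red, -0.61). Bottom, log2 fold change of each of the 10 genes (point) and its SE (bar) on the same axis, from RFC1 at -1.11 to FEN1 at -0.46.

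The order of the transcripts by FPKM was nearly the same in both groups. In siANP32B cells PCNA and RFC1 came first with overlapping values, then FEN1, RFC2 and RFC4 (overlapping each other), CHTF18, RFC5, RFC3, LIG1 and ATAD5. In siCtrl cells RFC1 came first and PCNA followed without overlap, then FEN1, RFC4 and RFC2. Below them, CHTF18 and RFC5 overlapped, as did RFC3 and LIG1, and ATAD5 came last. Within siANP32B cells, replicate 3 had the highest value for 8 of the 10 genes and replicate 2 the lowest for 7. siCtrl replicate 1, which stood apart over many genes, was highest for 5 of the 10 and lowest for 1. Without it the log2 fold changes of the 10 genes lay between -1.10 (RFC1) and -0.46 (FEN1), and their median was -0.60.

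Counting error was small beside these differences. Reads behind the values were at least 1453 to 3972 fragments per sample for RFC1, 1716 to 3177 for PCNA and 240 to 634 for LIG1, the gene with the fewest. Counting alone would at these numbers give a coefficient of variation of at most 6.46%. They are the smallest whole numbers that fit the FPKM values, so that the true ones could be a multiple of them.

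Some of the 10 share exon bases with neighbours on the other strand, and no source used here says whether counting took strand into account. RFC4 shares 21 bases with EIF4A2, RFC5 186 with WSB2, and FEN1 166 with TMEM258 as well as 49 on the same strand with FADS2. CHTF18 shares 142 bases with RPUSD1, which moved in the other direction, with 51.0 to 58.3 FPKM in siANP32B cells and at most 31.5 FPKM in siCtrl cells. TMEM258, FADS2 and WSB2 were lower in siANP32B cells, as FEN1 and RFC5 were. TMEM258 had 16.3 to 17.0 FPKM in siANP32B cells and 22.0 to 26.3 FPKM in siCtrl cells. FADS2 had 6.43 to 7.66 and 9.17 to 9.98 FPKM, and WSB2 72.8 to 75.6 and 81.0 to 89.3 FPKM. The groups overlapped for EIF4A2 (154 to 159 and 148 to 155 FPKM). What reads of any of these neighbours add to the values of the 10 genes was not tested. Processed pseudogenes of FEN1, RFC3, RFC5 and PCNA were listed at no more than 0.046 FPKM in any sample.

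The promoters of the genes were searched for letters of the E2F site, since E2F factors are known to act on genes of replication. RefSeq promoters (GRCh38.p14, 250 bases before to 50 bases after the start) were matched for 9 of the 10 genes, all but ATAD5. Searched on either strand were the letters TTCCCGC, their variant TTCGCGC, the further variant TTGCCGC, and the last variant TTGGCGC. At least 1 of them was in promoters of 7 of these 9 genes, the others being FEN1 and CHTF18. Such letters were in 13.0% of 35116 RefSeq promoters and in 19.6% of the 13688 promoters of tested genes. The matches that lay wholly before the start, found in 4 of the genes, are shown with their surroundings so that the shared letters can be seen, with the match in capitals. That of RFC4 began 10 bases before the start (chr3:186806483-186806503), that of RFC3 55 bases before (chr13:33818083-33818111), that of PCNA 59 bases before (chr20:5126664-5126692) and that of LIG1 113 bases before (chr19:48170440-48170468), each read on the strand of its gene.
RFC4: ctaccggcgtaTTCCCGCcct
RFC3: atttggagctcGCGGGAAaacttgtctct
PCNA: cagcgtcagggGCGGGAAaaggcgtgcgt
LIG1: cttcaccccttTTCCCGCcctcctcccat
In these 4 genes the match was the same 7 letters, read as TTCCCGC in RFC4 and LIG1 and as its reverse complement GCGGGAA in RFC3 and PCNA. The match of RFC2 spanned the start, and those of RFC1 and RFC5 lay after it, where LIG1 and RFC4 had further matches. The box CCAAT, on either strand, was in promoters of 4 of the 9 genes (RFC1, RFC5, PCNA and CHTF18), against 34.6% of all promoters. A match of letters is a description and shows no binding.

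An siRNA can also lower transcripts that match bases 2 to 8 of its guide strand, and so the transcripts of the 10 genes were searched for the complement of these bases. For the duplex siANP32B#1 the complement is GATGGCT, and for siANP32B#2 it is CTGAATT. RFC1 held GATGGCT at 2 places, in coding exon 14 (chr4:39306666-39306672) and in the 3′ UTR, exon 25 (chr4:39287780-39287786). ATAD5 held it in coding exon 18 (chr17:30879446-30879452), and also held CTGAATT in coding exons 9 and 12 and in the 3′ UTR, exon 23. The longest coding transcripts of the other 8 genes held neither. The 3 places with GATGGCT are shown, with these letters in capitals.
RFC1, coding exon 14: ccggcaaagatGATGGCTctagttttaaa
RFC1, 3′ UTR: tcctgtcctgtGATGGCTtccacaaaccc
ATAD5, coding exon 18: gtttaatgtttGATGGCTgctttgaagaa
GATGGCT was in the coding sequence or 3′ UTR of 23.8% of 11064 tested genes with a coding transcript, and at 2 or more places in 4.56% of them. The median log2 fold change was -0.15 for the genes with it and -0.05 for those without, and 38.7% and 25.6% of them were called lower. For CTGAATT, which 24.1% of the genes held, the medians were -0.13 and -0.05, and 35.7% and 26.5% were called lower. Genes with and without the letters were not matched for the length of the searched sequence. Whether these letters have a part in the values of RFC1 or ATAD5 was not tested.

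The other genes of the same steps were taken from 6 lists of 58 replication genes, of which 54 were tested. Of these, 34 were lower, 4 were higher and 16 did not pass the test (limma, adjusted p under 0.05 over all genes). Of all tested genes 24.6% were called lower and 14.6% higher. The median log2 fold change of the 54 genes was -0.39. The lists were chosen with earlier results of these data known, so the counts in them are a description. Genes are named by rank of p in each list. Those outside that rank are named where few were left or an alternative lost the call, and were picked after their values were seen.

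Among the partners of the other loaders and the 9-1-1 clamp, a ring akin to PCNA that signals DNA damage, 5 of 6 tested genes were lower and none was higher. DSCC1, a subunit of the CHTF18 complex, averaged 13.6 ± 2.69 FPKM in siANP32B cells and 26.8 ± 0.950 FPKM in siCtrl cells (SD, n = 3 each), a log2 fold change of -0.94 (SE 0.12, limma adjusted p = 2.77e-04). RAD1 and HUS1, subunits of the 9-1-1 ring, had log2 fold changes of -0.40 and -0.39 (limma adjusted p = 0.00109 and 0.00618). RAD9B, at 1.06 and 2.47 FPKM in siANP32B and siCtrl cells, had one of -0.75 (limma adjusted p = 0.00547). RAD17, which loads the 9-1-1 ring together with RFC2 to RFC5, had -0.25 (limma adjusted p = 0.0206) and was called in 7 of 14 alternatives, with adjusted p of 0.0169 to 0.115. RAD9A did not pass the test (-0.19). CHTF8, the remaining subunit of the CHTF18 complex, and HUS1B averaged under 1 FPKM.

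In lagging strand synthesis 9 of 12 genes were lower and 1 was higher. RPA1 and RPA3, subunits of the protein that coats single-stranded DNA, had log2 fold changes of -0.36 and -0.55 (limma adjusted p = 9.38e-04 and 0.00179), and WDHD1, which tethers DNA polymerase alpha at the fork, had -0.50 (limma adjusted p = 0.00102). POLD2, a subunit of the PCNA-bound polymerase delta, was the one that rose, with 170 ± 1.51 FPKM in siANP32B cells and 143 ± 7.78 FPKM in siCtrl cells (log2 fold change 0.25, limma adjusted p = 0.00236). POLA2 and POLD4 did not pass the test (-0.08 and -0.02).

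Flap removal and the other ligation genes were split, with 6 of 10 tested genes lower and 3 higher. EXO1, an exonuclease that can also cut flaps, averaged 24.0 ± 1.52 FPKM in siANP32B cells and 40.9 ± 1.34 FPKM in siCtrl cells (log2 fold change -0.74, limma adjusted p = 3.21e-05). DNA2, which cuts long flaps, and the helicase PIF1, which helps to make them, had -0.62 and -0.67 (limma adjusted p = 3.28e-04 and 0.00236). RNASEH2B, a subunit of the RNase H2 that removes RNA from DNA, had -0.51 (limma adjusted p = 7.13e-04). The higher ones were RNASEH2C, another subunit of that enzyme (0.44), the ligase LIG3 (0.21) and the helicase WRN (0.23). LIG3 averaged 48.5 ± 1.84 FPKM in siANP32B cells and 41.9 ± 0.562 FPKM in siCtrl cells, opposite in direction to LIG1. WRN was near the threshold (limma adjusted p = 0.0491) and was called in 5 of 14 alternatives, with adjusted p of 0.00856 to 0.436. RNASEH2C and LIG3 were each called in 13 of 14 alternatives, and so was XRCC1 among the lower genes. All of them lost the call only with siCtrl replicate 1, a lone sample, as control. RNASEH1 did not pass the test (0.16), and RNASEH2A averaged under 1 FPKM.

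On the leading strand and in fork protection 4 of 7 genes were lower and none was higher. POLE and POLE2, subunits of polymerase epsilon, had log2 fold changes of -0.42 and -0.62 (limma adjusted p = 1.85e-04 and 2.63e-04), while its small subunits POLE3 and POLE4 did not pass the test (0.02 and 0.10). CLSPN and TIMELESS, which link the fork to the checkpoint, had -0.71 and -0.47 (limma adjusted p = 2.54e-04 and 5.89e-04), and TIPIN, which binds TIMELESS, did not pass it (0.16).

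Of the genes that modify PCNA, 4 of 9 tested genes were lower and none was higher, with a median log2 fold change of -0.12. USP1, which takes ubiquitin off PCNA with help of the ATAD5 complex, averaged 45.5 ± 0.587 FPKM in siANP32B cells and 70.6 ± 1.90 FPKM in siCtrl cells (log2 fold change -0.62, limma adjusted p = 1.45e-05). RAD18, the ligase that puts ubiquitin on PCNA, and its partner UBE2A had -0.49 and -0.24 (limma adjusted p = 1.65e-04 and 0.00231). UBE2V2 had -0.24 (limma adjusted p = 0.0191), and was called in 8 of 14 alternatives, with adjusted p of 0.00995 to 0.145. HLTF, a ligase for chains on PCNA, averaged under 1 FPKM.

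Of the proteins that bind PCNA, 6 of 10 genes were lower and none was higher. DTL, the receptor by which a ubiquitin ligase finds targets on the clamp, averaged 26.5 ± 0.783 FPKM in siANP32B cells and 46.2 ± 2.69 FPKM in siCtrl cells (log2 fold change -0.78, limma adjusted p = 2.06e-05). Among its known targets, CDKN1A, an inhibitor of cyclin-dependent kinases that binds PCNA, averaged 254 ± 1.57 FPKM in siANP32B cells and 345 ± 15.8 FPKM in siCtrl cells (-0.44, limma adjusted p = 5.77e-05), and the licensing factor CDT1 had -0.42 (limma adjusted p = 2.01e-04). MSH6 of mismatch repair had -0.38 (limma adjusted p = 0.00223).

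**Figure D3:**
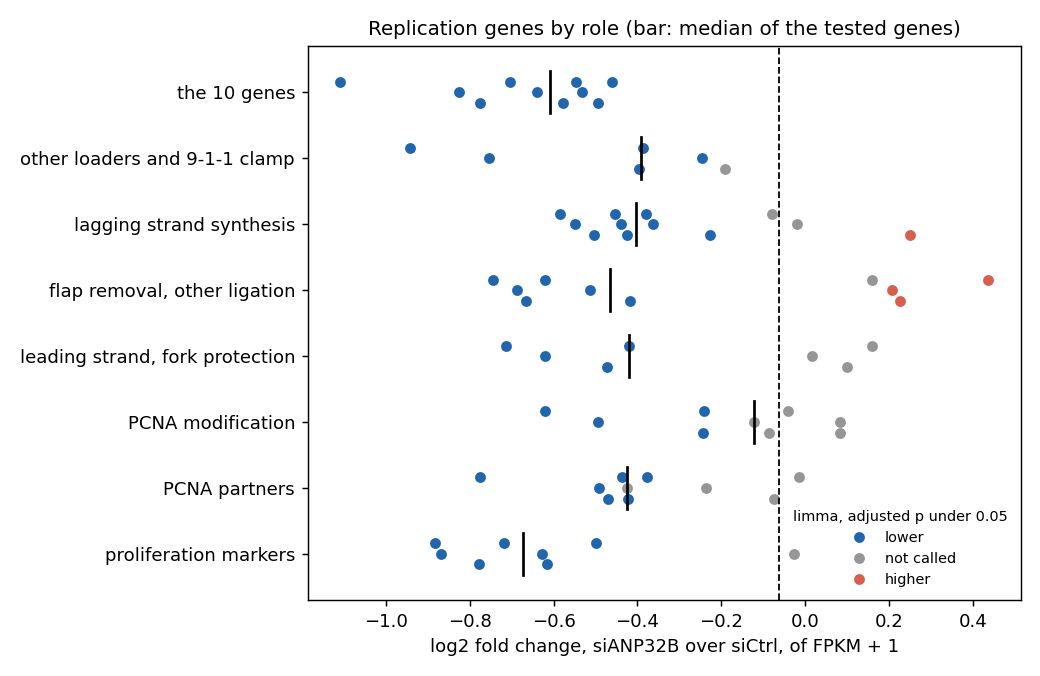
Log2 fold change (x axis, siANP32B over siCtrl, of FPKM + 1) of each tested gene (point) in the 10 genes, the 6 lists of other replication genes and the proliferation markers, coloured by call at a limma adjusted p under 0.05 (blue lower, grey not called, red higher). Black bars are medians (-0.61 for the 10 genes, -0.67 for the proliferation markers) and the dashed line is the median of all genes, -0.06; the calls of the 10 genes are shown for description only.

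Proliferation markers were lower in the same samples. Of 8 markers 7 were called lower and none higher, with a median log2 fold change of -0.67, and only CCNE1, the cyclin of S phase entry, did not pass the test (-0.03). Their summed level was 318 to 333 FPKM in siANP32B cells and 497 to 519 FPKM in siCtrl cells, and none was at 0. TOP2A averaged 67.6 ± 2.24 FPKM in siANP32B cells and 124 ± 5.19 FPKM in siCtrl cells, MKI67 42.1 ± 1.64 and 73.1 ± 6.47 FPKM, and CCNA2 12.8 ± 0.948 and 24.4 ± 1.06 FPKM (SD, n = 3 each). CDK1, CCNE2, BUB1 and CCNB1 had log2 fold changes of -0.72, -0.63, -0.62 and -0.50. The log2 fold changes of 6 of the 10 genes, RFC2, RFC3, PCNA, FEN1, CHTF18 and RFC5, were smaller in size than the median of these markers. What part the share of dividing cells has in the values of the 10 genes was not tested.

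**Figure D4:**
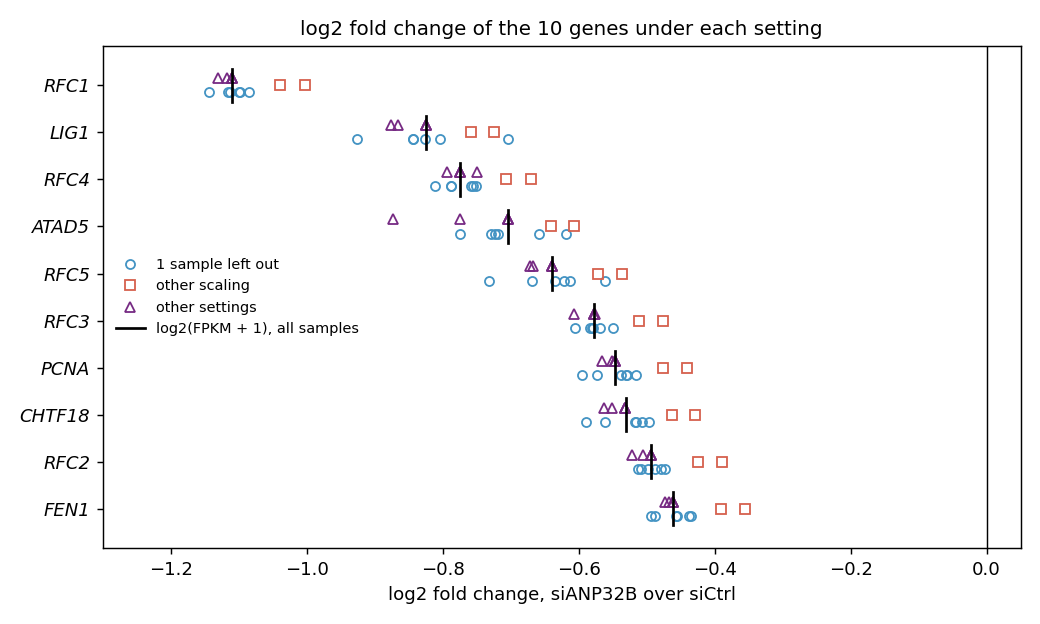
Log2 fold change (x axis, siANP32B over siCtrl) of the 10 genes with all samples (black bar), with 1 sample left out (blue circles), with another scaling (red squares) and with the other settings (purple triangles). All points lie below 0; for RFC1 they run from -1.14 to -1.0 and for FEN1 from -0.49 to -0.36.

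The values of the 10 genes kept their direction in each of the 14 other fits shown in the plot of settings. RFC1 lay between -1.14 and -1.0, RFC4 between -0.81 and -0.67, and LIG1 between -0.93 and -0.70. The values nearest to 0 came from upper-quartile scaling for 9 of the 10 genes, and for LIG1 from leaving out siANP32B replicate 1. With upper-quartile scaling the median of all genes was 0.03 and that of the 10 genes -0.51, since a scaling shifts all genes alike.

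By the pattern over the 6 samples, the genes most like RFC1 were GLO1, ARHGAP29 and SMC1A, with a Pearson correlation of 0.9998 each. The correlation is over 6 samples that differ mainly by group, and 289 of 9998 genes ranked had one above 0.99, so that it is a description only. GLO1, an enzyme that detoxifies methylglyoxal, averaged 66.7 ± 2.74 FPKM in siANP32B cells and 135 ± 2.68 FPKM in siCtrl cells. SMC1A, a subunit of the cohesin ring, averaged 13.4 ± 0.507 FPKM in siANP32B cells and 34.5 ± 0.724 FPKM in siCtrl cells, and ARHGAP29, a GTPase-activating protein, averaged 4.22 ± 0.347 and 12.2 ± 0.216 FPKM. GLO1 held GATGGCT at 1 place in its coding sequence, and SMC1A held CTGAATT at 1 place in its 3′ UTR. ARHGAP29 held neither.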

How the data were processed

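The deposited files give 1 FPKM value for each gene and sample, computed by the authors from fragments sequenced at both ends. The submitters' processing notes list Bowtie2, RSEM and DESeq2 and the build GRCh38 without versions or roles. The annotation used is not stated. FPKM are relative to all fragments of a sample, so a change in abundant genes shifts the rest. Fragment totals were recovered from low FPKM values and GENCODE 29 exon lengths.

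Genes averaging at least 1 FPKM over the 6 samples were tested on log2(FPKM + 1) with limma 3.58.1 (R 4.3.3; variance trend, Benjamini-Hochberg adjustment over 13945 genes, threshold 0.05). Fold changes are on that scale, which understates low genes. The fit was tested on simulated data with 200 changed genes. There each gene had the same spread in all samples, so the simulation leaves out that siCtrl replicate 1 stood apart. The 10 genes and all lists were chosen with earlier results of these data known. Named were the 10 genes, ANP32B, up to 4 called genes with the smallest p in each list, all markers (1 is not reported here), and the 3 genes of at least 5 FPKM most correlated with RFC1. Alternatives were a pseudocount of 0.1, no filter, a minimum of 5 FPKM, median-of-ratios and upper-quartile scaling, a replicate block, no variance trend, each sample left out, siCtrl replicate 1 as the only control, and a threshold of 0.01.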

Additional observations from a re-analysis of the deposited data

How the results depend on the processing

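The 10 genes were lower under each alternative, which is a description, as they were chosen on this contrast. No called gene among those named changed direction. Some genes that were not called, such as CCNE1 and CDX2, changed sign with upper-quartile scaling. Over all genes 3437 were lower and 2031 higher, and this balance turned with the scaling. There were 2216 lower and 3084 higher with upper-quartile scaling, 1899 and 1209 when siCtrl replicate 1 was the only control (a lone sample, assumed to vary like the others), and 2165 and 1267 at an adjusted p under 0.01. Of all calls, 37.1% were higher, against 51.2% with median-of-ratios scaling (2560 lower, 2690 higher) and 58.2% with upper-quartile scaling. Leaving out 1 sample gave 2755 to 3052 lower and 1667 to 1755 higher.

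Of the other replication genes, 34 were lower and 4 higher, against 30 and 7 with upper-quartile scaling and 30 and 6 with median-of-ratios scaling. With siCtrl replicate 1, a lone sample, as the only control, calls were lost in both directions. The lower genes POLA1, PRIM1, POLD3, XRCC1, RAD9B and UBE2A lost theirs only under that control. RAD17, RPA2, UBE2V2 and MSH3 lost theirs there and under other alternatives. MSH3 was called in 3 of 13 alternatives and RPA2 in 11 of 14. EPCAM was called in 3 of 14 and COL1A1 in 11 of 13, while KRT8 and KRT18, not called with all samples, were called higher in 3 and 2 of 14, both scalings included. Causes were not tested.

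Deviations of samples with the same replicate number were hardly correlated (0.02, -0.01 and -0.00). This does not show whether the samples were paired in culture. With the number as a replicate block, 3310 genes were lower and 2006 higher, and 33 other replication genes were lower and 3 higher. FPKM hold no counts, so no count test was run, and genes under 1 FPKM were not judged.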
